A study of Mus musculus with 50 samples.

Results

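The 35 genes described here are the enzymes, regulators and transporters of sterol and fatty acid synthesis, measured in activating CD8+ T cells. They were chosen by name, as the rows of the count table whose Ensembl identifier maps to a fixed set of gene symbols, and all 35 were found among its 21647 rows. The set holds 18 enzymes of cholesterol synthesis, 9 enzymes of fatty acid synthesis and desaturation, 5 regulators and 3 genes of sterol transport. All 35 passed the filter on low counts and were tested together with the other genes, 13294 in all. At 12 hours of activation the test called Fasn, Acaca and Acly, 3 of the 9 fatty acid enzymes, higher in knockout cells. With all mice 5.54% of all tested genes were called higher. By value alone, 17 of the 18 sterol enzymes were lower in knockout than in wild-type cells. Without a pair of divergent wild-type mice 15 were lower. The test called 1 sterol enzyme lower with all mice and 8 without that pair, against 7.55% and 9.03% of all tested genes. In the same order the median log2 difference was -0.47 and -0.50 for the sterol enzymes and -0.12 and 0.47 for the fatty acid enzymes. With all mice most of the sterol enzymes already had a lower mean in knockout cells at 0 hours. In that fit none of them had a change from 0 to 12 hours that was called different between the genotypes.

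Cholesterol and fatty acids are built from cytosolic acetyl-CoA. ATP citrate lyase (Acly) makes it from citrate and acetyl-CoA synthetase (Acss2) from acetate, after which the sterol branch runs through mevalonate, isoprenoids, squalene and lanosterol to cholesterol, and the fatty acid branch runs through acetyl-CoA carboxylase (Acaca) and fatty acid synthase (Fasn) to palmitate and then to the elongase and desaturases. Transcription of both branches is driven by the SREBP proteins, encoded by Srebf1 and Srebf2. Their precursors are escorted from the endoplasmic reticulum by Scap when sterols are low and are held there by Insig1 and Insig2 when sterols are high. Excess sterol activates LXR receptors, which raise the efflux pumps Abca1 and Abcg1. Activated T cells are known to raise lipid synthesis through SREBPs before they divide.

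CD8+ T cells were isolated with anti-CD8a magnetic beads from the spleens of 10-week-old knockout mice (KO) and wild-type mice (WT), with 5 mice per genotype on a strain background that the labels spell C567BL/6J. Cells of every mouse were sampled before culture (0 hours, naive) and after 2, 6, 12 and 24 hours on plates coated with anti-CD3e, with anti-CD28 in solution, both at 2 ug/ml and in medium with fetal bovine serum, so that 10 groups of 5 libraries make 50 libraries. The libraries are of bulk cells, so a change cannot be placed in a subset of the cells, and fewer cells of a type cannot be told apart from less RNA per cell. Expression is given as CPM, counts scaled to the library total and its TMM factor, which is a share of the library's RNA and not an amount per cell. Values of 5 libraries are listed in the order of mice 1 to 5.

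Libraries held 9571625 to 31293872 counts, with a median of 23548632. The 5 markers of CD8+ T cells (Cd3d, Cd3e, Cd3g, Cd8a and Cd8b1) summed to 3992 to 6041 CPM in KO libraries and 1931 to 15208 CPM in WT libraries at 0 hours. The highest sum came from the 0-hour library of WT mouse 3, which held 13261005 counts. That library enters every WT change from 0 hours, with or without the mice left out below. WT mice 1 and 4 stood apart from all other mice: at 0 hours their 6 markers of immature thymocytes summed to 1349 and 1005 CPM and their 7 mitosis markers to 4535 and 3648 CPM. The other 3 WT mice had 10.9 to 36.5 CPM of the thymocyte markers and 72 to 139 CPM of the mitosis markers, and the KO mice had 12.7 to 67.3 CPM and 208 to 802 CPM. No marker of the 7 lists examined was at 0 in every library at 12 hours, and their part in the results below was not tested. The main comparisons that use WT libraries are therefore given with all mice and also without WT mice 1 and 4. At 12 hours no marker list passed after adjustment over 35 comparisons, but the smallest exact two-sided permutation p that 5 against 5 mice can give, 0.00794, was itself adjusted to 0.0694, so lists that separated fully did not pass either. That p was reached by the thymocyte markers (10.6 to 19.8 CPM in KO and 23.3 to 781 CPM in WT, 23.3 to 33.1 CPM in WT mice 2, 3 and 5) and the dendritic cell markers (9.62 to 24.3 CPM in KO and 5.25 to 9.15 CPM in WT). In WT mice 2, 3 and 5 the mitosis markers were below every KO mouse at 0, 2, 6 and 12 hours, and at 12 hours they summed to 95.8 to 459 CPM in KO and 87 to 90.5 CPM in these WT mice.

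Promoter windows are given for genes of each branch on which the results turn. RefSeq promoter windows of 300 bases (250 before and 50 after the annotated start, build GRCm38.p6) were found for 27 of the 35 genes. Each window was searched on both strands for the classical sterol regulatory element of the form TCACNCCAC and for CCAAT, the box bound by NF-Y, a factor known to act together with SREBPs. The windows below belong to 3 sterol enzymes, to Fasn and Acly, which were higher in KO at 12 hours, and to Scap, for which 1 of its windows is shown. Capitals mark each match on either strand, so that ATTGG is CCAAT read on the other strand, and neighbouring matches can run together.

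Hmgcs1 (chr13:119690101-119690400, plus strand): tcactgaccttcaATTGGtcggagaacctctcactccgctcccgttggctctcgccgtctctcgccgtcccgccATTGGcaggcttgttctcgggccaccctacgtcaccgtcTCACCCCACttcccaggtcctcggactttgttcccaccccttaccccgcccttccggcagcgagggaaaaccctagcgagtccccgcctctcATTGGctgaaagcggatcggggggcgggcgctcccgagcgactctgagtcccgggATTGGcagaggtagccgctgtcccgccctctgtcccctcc
Cyp51 (chr5:4104648-4104947, minus strand): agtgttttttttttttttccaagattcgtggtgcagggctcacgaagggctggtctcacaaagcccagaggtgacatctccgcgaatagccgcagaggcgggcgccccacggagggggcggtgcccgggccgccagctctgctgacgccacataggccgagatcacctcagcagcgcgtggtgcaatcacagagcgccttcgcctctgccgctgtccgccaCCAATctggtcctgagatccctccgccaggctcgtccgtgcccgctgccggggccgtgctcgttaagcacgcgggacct
Msmo1 (chr8:64733529-64733828, minus strand): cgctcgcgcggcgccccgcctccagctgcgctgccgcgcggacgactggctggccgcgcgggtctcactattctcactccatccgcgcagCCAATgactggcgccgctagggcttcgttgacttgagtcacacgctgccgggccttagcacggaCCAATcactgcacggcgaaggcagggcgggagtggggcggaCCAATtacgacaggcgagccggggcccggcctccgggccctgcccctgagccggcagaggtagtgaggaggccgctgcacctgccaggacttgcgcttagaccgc
Fasn (chr11:120824498-120824797, minus strand): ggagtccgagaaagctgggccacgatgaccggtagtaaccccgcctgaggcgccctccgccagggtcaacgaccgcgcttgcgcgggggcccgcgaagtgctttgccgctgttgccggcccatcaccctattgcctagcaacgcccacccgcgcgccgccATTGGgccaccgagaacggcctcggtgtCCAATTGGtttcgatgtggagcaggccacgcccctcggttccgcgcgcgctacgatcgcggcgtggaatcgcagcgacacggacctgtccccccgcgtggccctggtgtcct
Acly (chr11:100527951-100528250, minus strand): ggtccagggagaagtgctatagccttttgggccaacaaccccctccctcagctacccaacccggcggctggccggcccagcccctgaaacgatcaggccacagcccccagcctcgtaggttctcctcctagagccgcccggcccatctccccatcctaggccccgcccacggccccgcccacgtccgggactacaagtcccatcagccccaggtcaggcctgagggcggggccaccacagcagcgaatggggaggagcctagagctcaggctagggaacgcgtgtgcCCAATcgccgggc
Scap (chr9:110333038-110333337, plus strand): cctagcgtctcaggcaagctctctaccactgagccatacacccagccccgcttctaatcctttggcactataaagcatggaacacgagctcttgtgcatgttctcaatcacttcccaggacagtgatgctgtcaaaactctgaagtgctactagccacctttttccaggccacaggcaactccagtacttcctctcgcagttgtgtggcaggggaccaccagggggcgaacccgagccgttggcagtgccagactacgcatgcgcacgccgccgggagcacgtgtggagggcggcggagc

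The sterol regulatory element was found in 1 of the 27 genes, Hmgcs1, where it starts 137 bases before the annotated start (position -137) on the plus strand. It was in the promoter of 1.44% of 27025 genes with a window and of 1.38% of the 10273 tested genes with one. CCAAT was found in 14 of 15 sterol enzymes, in 3 of 6 fatty acid enzymes (Acly, Acss2 and Fasn) and in 4 of 5 regulators, Scap being the one without it, against 42.7% of tested genes. The GC box GGGCGG, bound by Sp1, was in 14 of 15 sterol enzymes, 3 of 6 fatty acid enzymes and 5 of 5 regulators, against 66.9% of tested genes. The E box CACGTG was in 3 of 15 sterol enzymes, 0 of 6 fatty acid enzymes and 2 of 5 regulators, against 11.5% of tested genes. The only window of Acaca (chr11:84195188-84195487) lies inside the gene, whose annotated start is 84129672, so the bases before that start were not searched. Acaca is counted among the 6 fatty acid enzymes as a gene without these motifs. The matches describe the letters of the windows and not binding.

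Across the 35 genes, KO cells had 16, 26, 24 and 28 called at 2, 6, 12 and 24 hours against 0 hours, where 39.9%, 49.2%, 52.8% and 58.7% of all tested genes were called. WT cells had 13, 17, 18 and 24 (30.2%, 39.9%, 39.4% and 44.1%), or 23, 30, 24 and 31 without WT mice 1 and 4 (49.7%, 59.8%, 60.2% and 64.6%). Activation raised most of the sterol branch in both genotypes. At 12 hours against 0 hours, 11 of the 18 sterol enzymes rose and 1 fell in KO, with a median log2 change of 1.45 against -0.03 over all tested genes; 27.8% of all tested genes rose and 25% fell (called at an adjusted p under 0.05 by edgeR's quasi-likelihood test, as everywhere below). With library totals in place of TMM, the median of all genes moved by -0.16 to -0.18 in the KO time comparisons and 41.7% of the genes called at 12 hours rose, against 52.6% with TMM. In WT 11 rose and 0 fell, with a median of 1.82 against -0.09, where 19.3% of all genes rose and 20.2% fell. With WT mice 1 and 4 left out, 11 rose and 3 fell in WT, with a median of 1.89, against 28% and 32.2% of all genes. By position in the pathway, the early enzyme Hmgcs1, the isomerase Idi1, the squalene enzymes Fdps, Fdft1 and Sqle, the cyclase Lss and the demethylation enzymes Cyp51, Msmo1 and Hsd17b7 rose in both genotypes, as did the desaturase Sc5d.

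Cyp51, the lanosterol 14-alpha-demethylase (chr5:4081145-4104746, minus strand, GRCm38), had the largest log2 change among the sterol enzymes at 12 hours in KO, ahead of Idi1. Its 12-hour libraries had 251, 222, 222, 222 and 224 CPM in KO, against 13.9, 24.5, 29.3, 21.4 and 32.8 CPM in KO at 0 hours. In WT it had 278, 361, 316, 270 and 365 CPM at 12 hours, against 36.6, 30.3, 39, 34.2 and 29.9 CPM at 0 hours. Every 12-hour library was above every 0-hour library, and the WT libraries were above the KO libraries at 12 hours. The log2 change was 3.23 (SE 0.274, adjusted p = 7.78e-12) in KO and 3.22 (SE 0.274, adjusted p = 6.9e-12) in WT, or 3.35 (SE 0.214, adjusted p = 3.21e-15) without WT mice 1 and 4. The increase was already called at 2 hours in both genotypes, at 1.73 in KO and 2.03 in WT, or 1.27 in WT without mice 1 and 4. Exons of Akap9 on the other strand overlap 3.8% of its exon bases.

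Hmgcs1, the synthase that makes HMG-CoA, had 276, 261, 259, 258 and 249 CPM in KO at 12 hours, against 39.8, 57.2, 44.5, 60.3 and 57.9 CPM at 0 hours. WT had 354, 399, 391, 314 and 376 CPM at 12 hours, against 63.1, 71.9, 66.1, 63 and 69.4 CPM at 0 hours. The changes were 2.33 (SE 0.353, adjusted p = 7.83e-07) in KO and 2.46 (SE 0.355, adjusted p = 7.18e-07) in WT, or 2.44 (SE 0.136, adjusted p = 1.19e-16) without WT mice 1 and 4. Hmgcs1, whose window above holds the sterol regulatory element, thus rose in both genotypes. In addition 12.1% of its exon bases overlap Gm48342 on the other strand. Sqle, the squalene epoxidase, had 138, 132, 133, 128 and 136 CPM in KO at 12 hours, against 11.2, 18.4, 17.6, 21.3 and 28 CPM at 0 hours. WT had 117, 147, 165, 124 and 134 CPM at 12 hours, against 57.4, 23.4, 25.4, 50.1 and 18.8 CPM at 0 hours. It changed by 2.79 (SE 0.358, adjusted p = 3.97e-08) in KO and 1.97 (SE 0.346, adjusted p = 1.67e-05) in WT, or 2.68 (SE 0.224, adjusted p = 1.93e-12) without WT mice 1 and 4. Unlike Cyp51, Sqle did not pass the test at 2 hours in either genotype (0.10 in KO, adjusted p = 0.85, and 0.75 in WT, adjusted p = 0.0875, or 0.07, adjusted p = 0.805, without WT mice 1 and 4).

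Idi1, which isomerises isopentenyl diphosphate, had 5.94, 5.93, 6.43, 4.98 and 6.43 CPM in KO at 12 hours, against 0.514, 1.04, 0, 0.847 and 0.806 CPM at 0 hours. WT had 6.07, 8.57, 7.74, 5.95 and 7.86 CPM at 12 hours, against 2.22, 0.517, 0.193, 2.33 and 0.894 CPM at 0 hours. The levels are low, and 1 KO library had no count at 0 hours. The changes were 3.18 (SE 0.611, adjusted p = 3.32e-05) in KO and 2.53 (SE 0.589, adjusted p = 0.000654) in WT, or 3.75 (SE 0.57, adjusted p = 7.4e-07) without WT mice 1 and 4, where the size depends on the prior count used for low values. Gm48574 on the other strand overlaps 9.2% of its exon bases.

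Some sterol enzymes did not follow. Tm7sf2, a C14 sterol reductase, had 3.72, 4.1, 3.82, 4.42 and 3.79 CPM in KO at 2 hours, against 9.65, 10.9, 12, 11 and 11 CPM at 0 hours, with no overlap. It fell in KO at 2, 6 and 12 hours, by 1.46, 1.05 and 0.94 on the log2 scale, and at 24 hours its change was -0.59 (adjusted p = 0.116). With all WT mice it did not pass the test at any time in WT, but without WT mice 1 and 4 it fell at all 4 times, by 1.37, 1.09, 0.65 and 0.68. Dhcr7, the last reductase of the branch, had 15.8, 18.3, 13.6, 16.2 and 15.6 CPM in KO at 6 hours, against 35.1, 41.4, 29.7, 45.6 and 36.3 CPM at 0 hours, and the groups did not overlap. It fell by 1.24 at 6 hours in KO (adjusted p = 0.0205) and had a change of 0.80 at 24 hours (adjusted p = 0.121). Mvd, Nsdhl and Lss also fell at 2 hours in KO, by 1.19, 1.26 and 0.96, and of these Lss rose at 6 hours and later. Tm7sf2 shares 12.1% of its exon bases with Vps51 on the same strand, so part of its counts is uncertain. The same holds for Fdps, which shares 26.7% of its exon bases with Gm43738 on the same strand.

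Timing differed within the sterol branch. In KO 9 of the 18 sterol enzymes had their lowest mean at 0 hours, 6 at 2 hours (Mvk, Pmvk, Mvd, Lss, Tm7sf2 and Nsdhl) and 3 at 6 hours (Acat2, Ebp and Dhcr7). The highest mean was at 24 hours for 13 of the 18 in KO. In WT mice 2, 3 and 5 it was at 12 hours for 9 of the 18 and at 24 hours for 7, and these 9 were Hmgcs1, Idi1, Fdps, Fdft1, Cyp51, Msmo1, Nsdhl, Hsd17b7 and Sc5d. The orders of means are a description without a test. In KO the means at 12 and 24 hours were close for some genes, with 56.7 and 57.7 CPM per kb for Hmgcs1 and 9.91 and 9.95 for Fdft1. For others they lay apart, as for Pmvk with 18.2 and 34.7 CPM per kb. At 2 hours, 5 sterol enzymes rose and 5 fell in KO (20.3% and 19.6% of all genes), and 5 rose and 1 fell in WT (14% and 16.2%). With only WT mice 2, 3 and 5, 5 rose and 8 fell in WT, against 21.9% and 27.7% of all genes.

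At 6 hours, 10 of the 18 rose and 4 fell in KO (26.8% and 22.4% of all genes), and 11 rose and 0 fell in WT (20.2% and 19.7%). With only WT mice 2, 3 and 5, 10 rose and 7 fell in WT, against 28.6% and 31.2% of all genes. At 24 hours, 14 rose and 0 fell in KO (30.7% and 28%), and 12 rose and 0 fell in WT (19.9% and 24.2%), or 15 and 1 without WT mice 1 and 4 (32.5% and 32%). The share of sterol enzymes that rose was thus above that of all genes at 6, 12 and 24 hours, in both genotypes and with or without these mice.

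**Figure D1:**
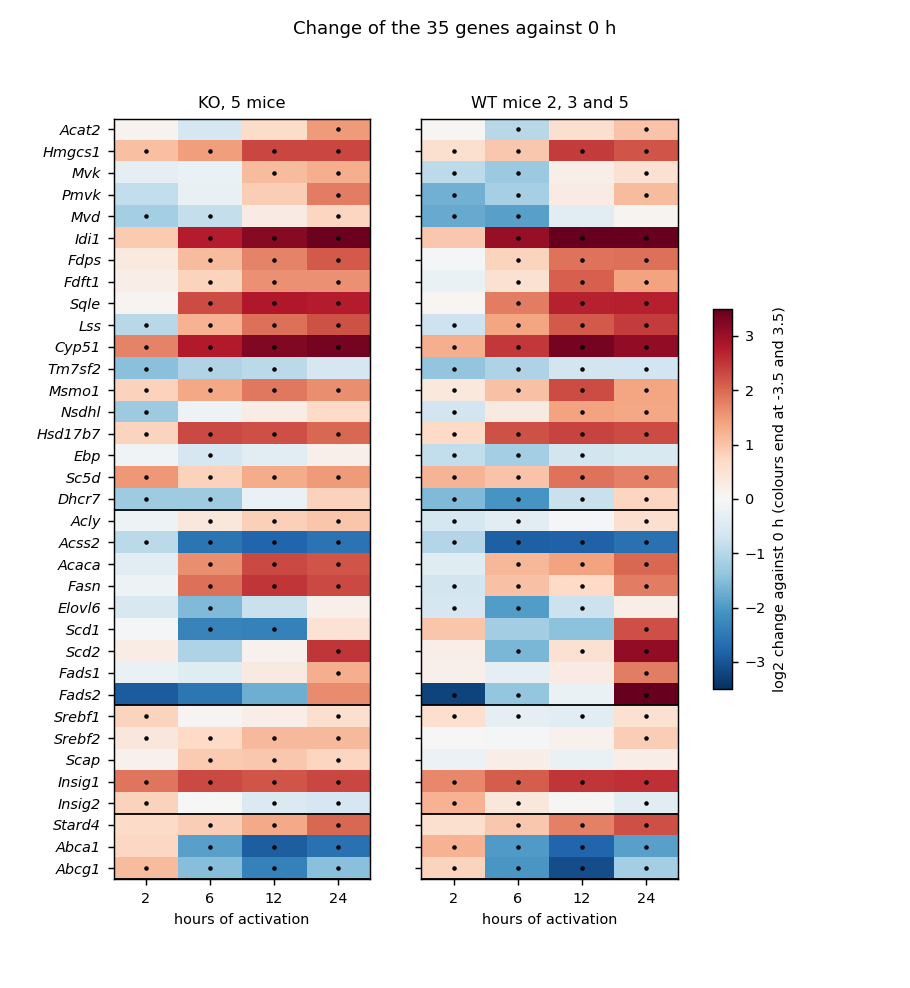
Fitted log2 change of each of the 35 genes against 0 hours (colour, red higher and blue lower) at 2, 6, 12 and 24 hours, in KO (left, fit of all 50 libraries) and in WT mice 2, 3 and 5 (right, fit without WT mice 1 and 4). Black dots mark an adjusted p under 0.05, and lines separate the sterol enzymes, the fatty acid enzymes, the regulators and the transport genes; from 6 hours on Cyp51, Idi1 and Sqle are deep red, while Acss2, Abca1 and Abcg1 are blue.

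The fatty acid enzymes did not move as 1 group. In KO Acly, Acaca and Fasn had risen by 12 hours, Scd2 and Fads1 rose at 24 hours, and Acss2 fell at all 4 times. At 12 hours 3 of the 9 rose in KO (Acly, Acaca and Fasn) and 2 fell (Acss2 and Scd1), with a median log2 change of 0.16; these counts lie near the 27.8% and 25% of all genes. In WT 2 rose (Acaca and Fasn) and 1 fell (Acss2), with a median of -0.32 (19.3% and 20.2% of all genes), or 3 and 2 with a median of -0.07 without WT mice 1 and 4 (28% and 32.2%). At 24 hours 5 of 9 rose and 1 fell in KO, with a median of 1.26 (30.7% and 28% of all genes). In WT 4 rose and 1 fell, with a median of 0.57 (19.9% and 24.2%), or 7 and 1 with a median of 1.79 without WT mice 1 and 4 (32.5% and 32%).

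Fasn, which makes palmitate (chr11:120805846-120824547, minus strand), had 1158, 1281, 1180, 1241 and 1497 CPM in KO at 12 hours, against 198, 243, 191, 238 and 253 CPM at 0 hours. Its change was 2.50 (SE 0.215, adjusted p = 9.9e-12). WT had 566, 474, 800, 499 and 396 CPM at 12 hours, against 516, 303, 433, 426 and 263 CPM at 0 hours, and there the groups overlapped. The WT change was 0.49 (SE 0.204, adjusted p = 0.0494), and 0.70 (SE 0.222, adjusted p = 0.00717) without WT mice 1 and 4. Over the 4 times the log2 change ran -0.18, 1.94, 2.50 and 2.30 in KO and -0.62, 0.58, 0.49 and 1.41 in WT, with the largest WT value at 24 hours. Per kilobase of exon, Fasn had the highest level of the 35 genes in KO at 12 hours, with 116 CPM per kb, ahead of Acly with 100.

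Acaca, the carboxylase that commits acetyl-CoA to fatty acids, had 101, 111, 98.5, 99.6 and 111 CPM in KO at 12 hours, against 16.2, 21.1, 26.5, 19.9 and 20.8 CPM at 0 hours. WT had 45.4, 62.8, 82.6, 53.1 and 54.1 CPM at 12 hours, against 59, 22.7, 29.6, 43.6 and 21.2 CPM at 0 hours. The change was 2.32 (SE 0.252, adjusted p = 1.52e-09) in KO, where the groups did not overlap, and 0.76 (SE 0.241, adjusted p = 0.0107) in WT, where they did, or 1.40 (SE 0.192, adjusted p = 1.08e-07) without WT mice 1 and 4. Acly had 517, 540, 512, 524 and 548 CPM in KO at 12 hours, against 275, 316, 226, 344 and 324 CPM at 0 hours. WT had 367, 376, 451, 370 and 343 CPM at 12 hours, against 455, 368, 492, 410 and 326 CPM at 0 hours. It rose by 0.83 (SE 0.153, adjusted p = 1.76e-05) in KO, whereas the WT change was -0.11 (SE 0.152, adjusted p = 0.617), or -0.07 (SE 0.152, adjusted p = 0.727) without WT mice 1 and 4, and the WT groups overlapped. In WT Acly rose by 24 hours, at 0.41 (SE 0.152, adjusted p = 0.0276), and at 0.58 without WT mice 1 and 4.

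Acss2, the enzyme that makes acetyl-CoA from acetate, went the other way. KO libraries had 11.3, 16, 14, 12.1 and 8.81 CPM at 12 hours, against 84.1, 105, 81.1, 93.1 and 63.5 CPM at 0 hours, and it changed by -2.78 (SE 0.311, adjusted p = 2.91e-09). WT libraries had 20.1, 15.9, 12.5, 16.2 and 12 CPM at 12 hours, against 24, 97.5, 72.4, 37.6 and 106 CPM at 0 hours, and the change was -2.14 (SE 0.304, adjusted p = 5.35e-07), or -2.82 (SE 0.236, adjusted p = 2.03e-12) without WT mice 1 and 4. The low WT values at 0 hours, 24 and 37.6 CPM, belong to WT mice 1 and 4. It fell at all 4 times in both genotypes. Exons of Ggt7, Acss2os and Gss on the other strand overlap 9.1% of its exon bases.

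The desaturases Scd1, Scd2, Fads1 and Fads2 had their highest mean at 24 hours in KO and in WT mice 2, 3 and 5. Scd2, a stearoyl-CoA desaturase, had 550, 657, 753, 587 and 597 CPM in KO at 24 hours, against 110, 101, 102, 105 and 133 CPM at 0 hours, and rose by 2.51 (SE 0.748, adjusted p = 0.00403). WT had 643, 799, 642, 635 and 693 CPM at 24 hours, against 558, 101, 49.5, 434 and 99 CPM at 0 hours. Mice 1 and 4 were already high at 0 hours, the WT change was 1.46 (SE 0.721, adjusted p = 0.0965), and without those mice it was 3.09 (SE 0.198, adjusted p = 3.11e-15). Fads2, the delta-6 desaturase, had 12.8, 22.3, 26.2, 18.1 and 17.8 CPM in KO at 24 hours, against 3.64, 3.82, 8.61, 7.5 and 7.14 CPM at 0 hours. WT had 35.8, 30.2, 20.9, 23.6 and 27.8 CPM at 24 hours, against 49.3, 1.42, 0.963, 39.6 and 1.32 CPM at 0 hours. Its change in KO was 1.66 (SE 1.19, adjusted p = 0.229), and in WT without mice 1 and 4 it was 4.38 (SE 0.509, adjusted p = 3.47e-09). With all mice the WT value was 0.57 (adjusted p = 0.714).

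Scd1, the other stearoyl-CoA desaturase, had 2.61, 1.96, 4.32, 1.41 and 3.36 CPM in KO at 12 hours, against 7.75, 7.35, 42.3, 3.63 and 10.2 CPM at 0 hours. The value of 42.3 CPM belongs to KO mouse 3, whose B cell markers summed to 322 CPM at 0 hours, the highest of all libraries at that time. Scd1 changed by -2.37 (SE 0.788, adjusted p = 0.0104) in KO, but without KO mouse 3 the change was -1.63 and did not pass the test (adjusted p = 0.0959). WT had 0.548, 2.55, 2.67, 1.05 and 0.217 CPM at 12 hours, against 2.02, 9.31, 4.14, 2.01 and 0.778 CPM at 0 hours, with a change of -1.37 (adjusted p = 0.161), and rose by 24 hours at 2.14 (SE 0.78, adjusted p = 0.0236). In WT mice 2, 3 and 5 these changes were -1.43 (adjusted p = 0.184) and 2.25 (adjusted p = 0.0283). The elongase Elovl6 fell at 6 hours in KO, by 1.54 (adjusted p = 0.00173), and the delta-5 desaturase Fads1 rose at 24 hours in KO, by 1.26 (adjusted p = 0.00514).

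**Figure D2:**
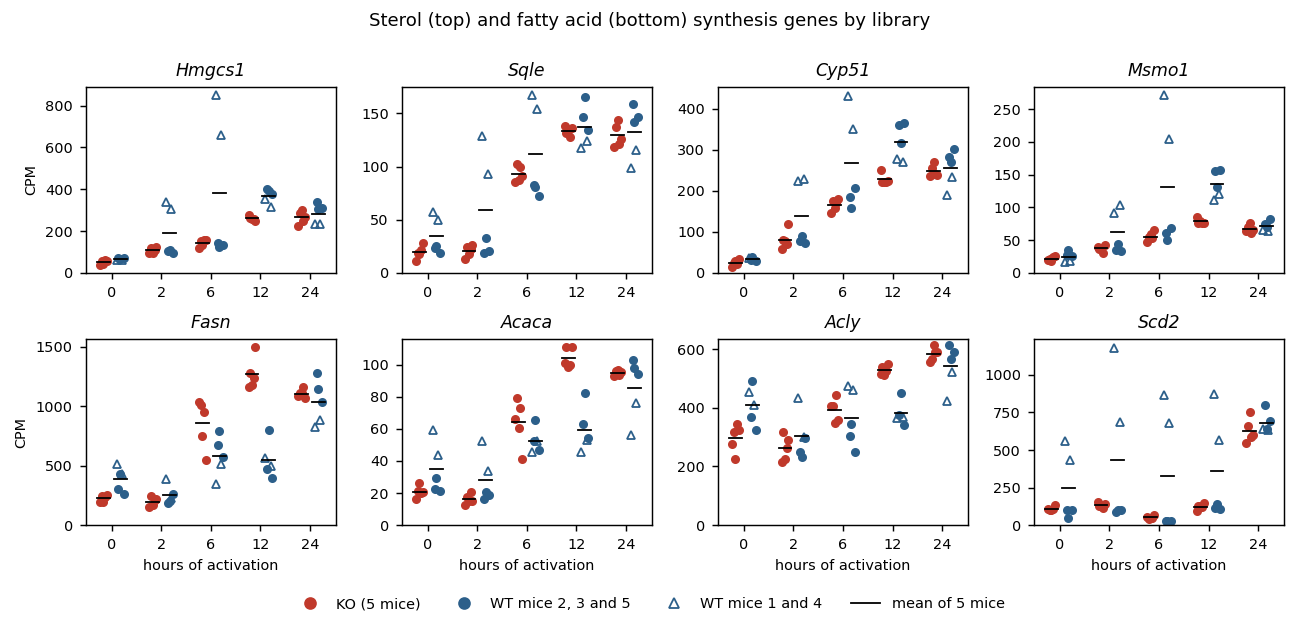
CPM of 4 sterol enzymes (top) and 4 fatty acid enzymes (bottom) in every library at 0, 2, 6, 12 and 24 hours, with KO at the left and WT at the right of each time. Triangles are WT mice 1 and 4 and lines the mean of 5 mice; at 12 hours the KO libraries of Fasn (1158 to 1497 CPM) lie above all WT libraries (396 to 800 CPM), while those of Hmgcs1, Cyp51 and Msmo1 lie below all WT libraries.

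Among the regulators, Insig1, a retention protein that is itself a target of SREBPs, had the largest rise at 12 hours. It had 82.6, 67.2, 72.1, 69.6 and 75.4 CPM in KO at 12 hours, against 13.5, 17.7, 17.7, 16.7 and 13.8 CPM at 0 hours. WT had 108, 99, 93.1, 94.2 and 96.6 CPM at 12 hours, against 16.6, 21.6, 9.35, 17.5 and 17.7 CPM at 0 hours. The changes were 2.21 (SE 0.194, adjusted p = 1.29e-11) in KO and 2.57 (SE 0.197, adjusted p = 4.73e-13) in WT, or 2.50 (SE 0.188, adjusted p = 1.48e-13) without WT mice 1 and 4, and it rose at every time in both genotypes. Insig2, its relative, had 50.3, 43.6, 46.5, 38.8 and 37.5 CPM in KO at 2 hours and 17.3, 19.6, 18.4, 16.9 and 15.5 CPM at 12 hours, against 23.6, 26.1, 26.9, 24.7 and 22.5 CPM at 0 hours. It rose by 0.81 at 2 hours in KO and fell by 0.50 at 12 hours and 0.60 at 24 hours. In WT it rose by 0.82 at 2 hours and fell by 0.56 at 24 hours, while at 12 hours its change was 0.08 (adjusted p = 0.751). In WT mice 2, 3 and 5 the values were 1.21, 0.04 and -0.37 at 2, 12 and 24 hours.

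Srebf2, which encodes SREBP-2, had 384, 419, 396, 416 and 408 CPM in KO at 12 hours, against 167, 220, 174, 204 and 154 CPM at 0 hours. WT had 367, 244, 356, 310 and 217 CPM at 12 hours, against 226, 309, 163, 210 and 246 CPM at 0 hours. The change was 1.14 (SE 0.163, adjusted p = 2.67e-07) in KO, where the groups did not overlap, and 0.37 (SE 0.161, adjusted p = 0.061) in WT, or 0.14 (SE 0.199, adjusted p = 0.551) without WT mice 1 and 4. Scap, the escort protein, had 213, 232, 223, 238 and 213 CPM in KO at 12 hours, against 114, 141, 91.7, 122 and 110 CPM at 0 hours. WT had 99.5, 131, 180, 122 and 126 CPM at 12 hours, against 154, 167, 182, 146 and 147 CPM at 0 hours. It rose by 0.95 (SE 0.176, adjusted p = 1.96e-05) in KO and had a change of -0.27 (SE 0.175, adjusted p = 0.219) in WT, or -0.23 (SE 0.142, adjusted p = 0.167) without WT mice 1 and 4. Srebf1, which encodes SREBP-1, had its highest mean at 2 hours in KO and in WT mice 2, 3 and 5. With all mice it rose at 2 hours by 0.78 in KO (adjusted p = 2.3e-05) and 0.45 in WT (adjusted p = 0.0141), or 0.58 without WT mice 1 and 4. Exons of 5830462I19Rik on the other strand overlap 13.2% of the exon bases of Scap.

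The efflux genes fell. Abca1, the cholesterol pump that feeds lipid-poor apolipoprotein, had 2.85, 3.08, 3.7, 2.82 and 3 CPM in KO at 12 hours, against 36.2, 28.3, 25.3, 14.9 and 8.98 CPM at 0 hours. WT had 0.411, 3.18, 2.56, 0.636 and 1.57 CPM at 12 hours, against 1.61, 25.5, 1.45, 3.58 and 21.3 CPM at 0 hours, and there the groups overlapped, mice 1, 3 and 4 being low at 0 hours. The changes were -2.88 (SE 0.726, adjusted p = 0.000983) in KO and -2.68 (SE 0.727, adjusted p = 0.00299) in WT, or -2.78 (SE 0.553, adjusted p = 5.16e-05) without WT mice 1 and 4. Abcg1, which passes sterol on to lipoproteins, had 14.1, 20.3, 17.4, 15.7 and 17.4 CPM in KO at 12 hours, against 96.8, 107, 78.7, 81.8 and 71.9 CPM at 0 hours. WT had 30, 10.9, 12.5, 18.4 and 10.3 CPM at 12 hours, against 47.3, 116, 64.2, 51.3 and 99.3 CPM at 0 hours. The changes were -2.36 (SE 0.307, adjusted p = 5.1e-08) in KO and -2.20 (SE 0.306, adjusted p = 3.35e-07) in WT, or -3.10 (SE 0.235, adjusted p = 1.99e-13) without WT mice 1 and 4. Before this fall Abcg1 rose at 2 hours in KO, by 1.10 (adjusted p = 0.00259). Stard4, a carrier of cholesterol inside the cell, rose at 12 hours by 1.32 in KO and 1.50 in WT (adjusted p = 0.000922 and 0.000365), and by 1.76 in WT without mice 1 and 4.

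**Figure D3:**
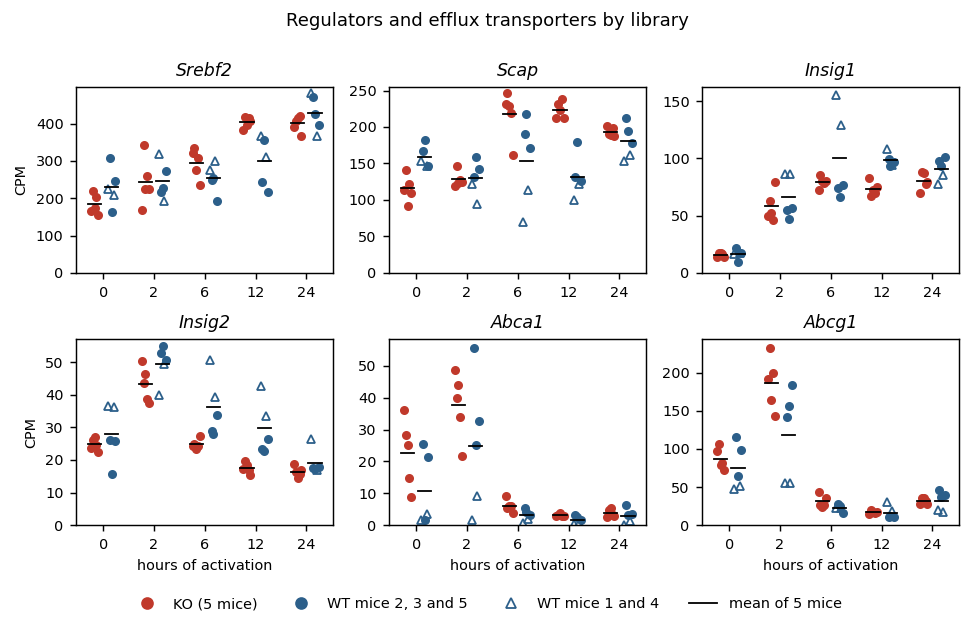
CPM of the regulators Srebf2, Scap, Insig1 and Insig2 and of the efflux pumps Abca1 and Abcg1 in every library at 0, 2, 6, 12 and 24 hours, KO at the left and WT at the right of each time, with triangles for WT mice 1 and 4 and lines for the mean of 5 mice. At 12 hours Scap lies between 213 and 238 CPM in KO and between 99.5 and 180 CPM in WT, and Insig2 between 15.5 and 19.6 CPM in KO and between 22.6 and 42.6 CPM in WT.

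Further genes of the pathways, outside the 35, were listed beside them, and 27.8% of all tested genes rose and 25% fell at 12 hours in KO. Of 19 other sterol pathway genes, all tested, 6 rose and 5 fell at 12 hours in KO, with a median log2 change of 0.21, and 6 rose and 4 fell in WT, with a median of 0.18 (19.3% and 20.2% of all genes), or 7 and 6 with a median of 0.16 without WT mice 1 and 4 (28% and 32.2%). The KO counts lie near those of all genes. Tmem97, a sterol-regulated membrane protein, rose by 2.72 (SE 0.477, adjusted p = 8.31e-06) in KO. Mylip, the ubiquitin ligase induced by LXR that degrades lipoprotein receptors, changed by -2.21 (SE 0.332, adjusted p = 6.36e-07), and Lipa, the lysosomal acid lipase, by -1.72 (SE 0.303, adjusted p = 9.13e-06). Of 19 other fatty acid genes, 18 were tested; 10 rose and 4 fell in KO, with a median of 0.61, and 10 rose and 2 fell in WT, with a median of 0.65, or 10 and 3 with a median of 0.75 without WT mice 1 and 4. Fabp5, a fatty acid binding protein, rose by 3.36 (SE 0.555, adjusted p = 3.21e-06) in KO, and Hsd17b12, a reductase of chain elongation, by 1.35 (SE 0.136, adjusted p = 2.46e-10). Acsl4, which activates long-chain fatty acids, rose by 1.29 (SE 0.173, adjusted p = 9.18e-08), the citrate carrier Slc25a1 by 1.31 (SE 0.192, adjusted p = 4.2e-07) and the dehydratase Hacd3 by 0.64 (SE 0.104, adjusted p = 2.27e-06).

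The genotypes were compared next. At 12 hours 6 of the 35 genes were called between KO and WT, where 13.1% of all tested genes were called. Of these, 4 were higher in KO (Acly, Acaca, Fasn and Scap, against 5.54% of all genes) and 2 were lower (Tm7sf2 and Insig2, against 7.55%). Without WT mice 1 and 4, 16 were called (23% of all genes): 7 were higher in KO, namely these 4 with Srebf1, Srebf2 and Abcg1 (13.9% of all genes), and 9 were lower (9.03%). A fit of the 10 libraries of 12 hours alone, in which each mouse enters once, called 17 (29.9% of all genes), with 4 higher and 13 lower. With the mouse as a block, in limma-voom, 5 were called (8.98% of all genes), the same number as in limma-voom without the block, Acly having an adjusted p of 0.0542. Leaving out each mouse in turn, Fasn, Scap and Insig2 were called in all 10 fits, Acaca in 4, Tm7sf2 in 3 and Acly in 2. Without KO mouse 1, 2, 3, 4 or 5, or without WT mouse 4, 3 genes were called. With library totals in place of TMM, 30.4% of all genes called at 12 hours were higher in KO, against 42.3% with TMM.

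Fasn had 1271 ± 135 CPM in KO and 547 ± 154 CPM in WT at 12 hours (mean ± SD, n = 5 each). All 5 KO values listed above were higher than all 5 WT values. The log2 difference, KO minus WT, was 1.22 (SE 0.206, adjusted p = 0.000387) with all mice and 1.22 (SE 0.207, adjusted p = 8.83e-05) without WT mice 1 and 4. Acaca had a mean of 104 ± 6.22 CPM in KO and 59.6 ± 14.3 CPM in WT, again without overlap, a difference of 0.81 (SE 0.241, adjusted p = 0.0247) and of 0.68 (SE 0.171, adjusted p = 0.00399) without WT mice 1 and 4. Acly had a mean of 528 ± 15.4 CPM in KO and 381 ± 40.6 CPM in WT, without overlap, and differed by 0.47 (SE 0.152, adjusted p = 0.036) and 0.47 (SE 0.138, adjusted p = 0.0126). The 3 genes are consecutive steps, from citrate to palmitate. Of the other 6 fatty acid enzymes, none was called at 12 hours in either fit, and their differences ran from -2.76 for Fads2 to 0.96 for Scd1 with all mice.

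At 12 hours 17 of the 18 had a difference below 0 with all mice, with a median of -0.47 against -0.10 over all genes, and only Tm7sf2 passed the test, at -0.99 (SE 0.33, adjusted p = 0.0418). It had 5.25, 7.24, 6.3, 6.29 and 3.4 CPM in KO, against 17.5, 9.15, 8.83, 12.5 and 8.34 CPM in WT, and the groups did not overlap. Without WT mice 1 and 4, 15 of 18 were below 0, with a median of -0.50 against 0.02, and 8 were called lower: Hmgcs1, Fdps, Fdft1, Cyp51, Tm7sf2, Msmo1, Nsdhl and Sc5d. Msmo1, the C4 methyl sterol oxidase, had 85.3, 76.8, 78.6, 76.7 and 75.4 CPM in KO, against 112, 155, 131, 120 and 157 CPM in WT. Its difference was -0.78 (SE 0.294, adjusted p = 0.0682) with all mice and -0.87 (SE 0.122, adjusted p = 1.48e-05) without WT mice 1 and 4. Fdft1, the squalene synthase, had 45.2, 42.9, 43.2, 38.6 and 39.7 CPM in KO, against 48.1, 79.7, 69.1, 58.3 and 87.7 CPM in WT, with differences of -0.71 (SE 0.309, adjusted p = 0.117) and -0.87 (SE 0.154, adjusted p = 0.000132). Exons of Ctsb on the other strand overlap 18.3% of its exon bases.

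Hmgcs1 and Cyp51 also had every KO value below every WT value at 12 hours, as listed above, with differences of -0.49 (SE 0.337, adjusted p = 0.34) and -0.48 (SE 0.252, adjusted p = 0.204), and -0.54 (SE 0.114, adjusted p = 0.000864) and -0.57 (SE 0.171, adjusted p = 0.0156) without WT mice 1 and 4. Across the 35 genes, every KO library was lower than every WT library for 13 genes at 12 hours (11.4% of all tested genes) and higher for 5 (13%). The 13 were Acat2, Hmgcs1, Pmvk, Fdps, Fdft1, Cyp51, Tm7sf2, Msmo1, Nsdhl, Sc5d, Insig1, Insig2 and Stard4. The 5 were Acly, Acaca, Fasn, Srebf2 and Scap. Sqle overlapped between the genotypes and differed by -0.04 (SE 0.334, adjusted p = 0.952), and by -0.12 (SE 0.185, adjusted p = 0.685) without WT mice 1 and 4. Acat2 has a near-identical neighbour in the mouse genome, Acat3, so its counts are uncertain.

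**Figure D4:**
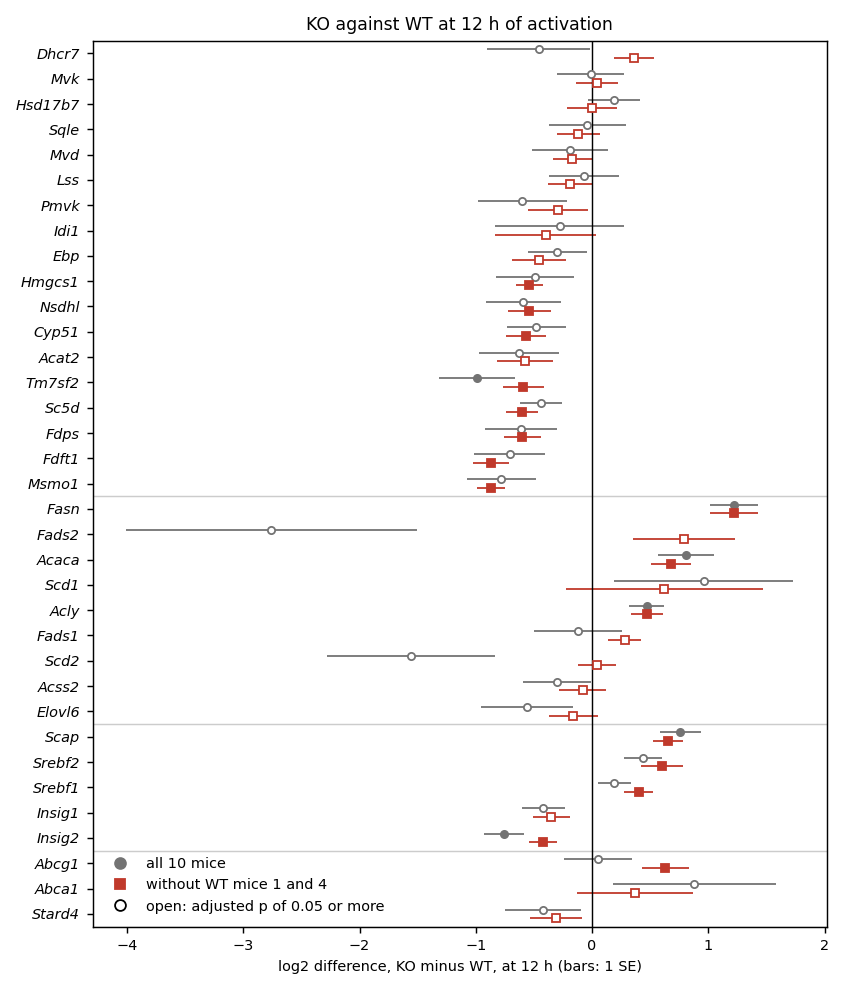
Log2 difference, KO minus WT, at 12 hours for each of the 35 genes with 1 SE, from all 10 mice (grey circles) and without WT mice 1 and 4 (red squares); filled symbols have an adjusted p under 0.05. From top to bottom the blocks are sterol enzymes, fatty acid enzymes, regulators and transport genes, and Fasn, Acaca, Acly and Scap lie right of 0 in both fits, while Tm7sf2 and Insig2 lie left of 0.

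The branches can be set side by side by their medians. At 12 hours the median log2 difference, KO minus WT, was -0.47 for the sterol enzymes and -0.12 for the fatty acid enzymes with all mice, and -0.50 and 0.47 without WT mice 1 and 4. At 6 hours it was -1.19 and -0.15 with all mice, and -0.13 and 0.32 without these mice. At 24 hours it was -0.03 and 0.06, and -0.17 and -0.15. At 0 hours, with all mice, most sterol enzymes already had a lower mean in KO, the exceptions being Nsdhl, Hsd17b7 and Sc5d. Per kilobase of exon, Hmgcs1 then had 11.3 CPM in KO and 14.5 CPM in WT, and Cyp51 had 5.52 and 7.71 CPM. The differences at 12 hours thus include those present before activation. At 12 hours 0 of 18 sterol enzymes and 3 of 9 fatty acid enzymes were called higher in KO in both fits. Over all genes 5.54% were higher with all mice and 13.9% without WT mice 1 and 4. Called lower were 1 of 18 and 0 of 9 with all mice (7.55% of all genes), and 8 of 18 and 0 of 9 without WT mice 1 and 4 (9.03%). These medians describe chosen genes and carry no test.

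**Figure D5:**
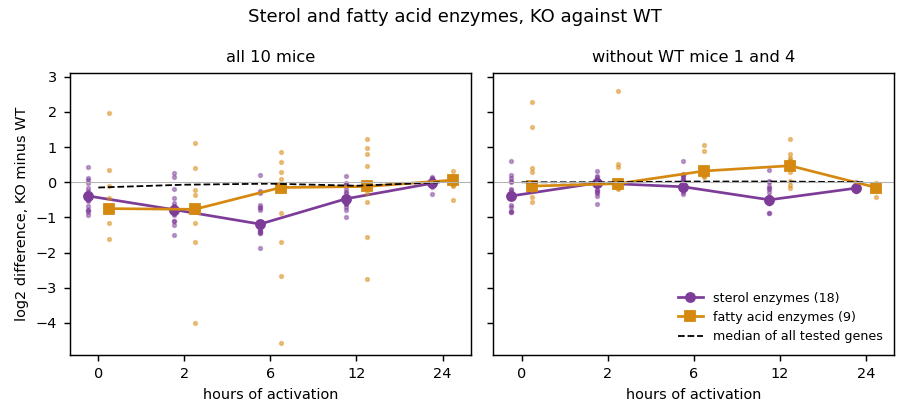
Log2 difference, KO minus WT, of the 18 sterol enzymes (purple circles and line at their median) and the 9 fatty acid enzymes (orange squares and line) at 0, 2, 6, 12 and 24 hours, with small points for single genes and a dashed line for the median of all tested genes. With all 10 mice (left) the sterol median is lowest at 6 hours, at -1.19; without WT mice 1 and 4 (right) the branches are farthest apart at 12 hours, at -0.50 and 0.47, and lie close together at 24 hours.

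Regulators differed too. Scap had 224 ± 11.2 CPM in KO and 132 ± 29.7 CPM in WT at 12 hours (mean ± SD, n = 5 each), without overlap, and the difference was 0.76 (SE 0.176, adjusted p = 0.00554), and 0.65 (SE 0.13, adjusted p = 0.000456) without WT mice 1 and 4. Insig2 had 17.3, 19.6, 18.4, 16.9 and 15.5 CPM in KO, against 42.6, 23.2, 22.6, 33.5 and 26.3 CPM in WT at 12 hours, without overlap. The difference was -0.76 (SE 0.173, adjusted p = 0.00542), and -0.42 (SE 0.119, adjusted p = 0.0106) without WT mice 1 and 4. Srebf2 had no overlap either, and its difference of 0.44 (SE 0.161, adjusted p = 0.063) with all mice did not pass the test, whereas 0.60 (SE 0.182, adjusted p = 0.015) without WT mice 1 and 4 did. Insig1 differed by -0.42 (SE 0.185, adjusted p = 0.122) and -0.35 (SE 0.156, adjusted p = 0.0995), passing in neither fit.

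The change from 0 to 12 hours was then compared between the genotypes directly, as the KO change minus the WT change. It was larger in KO for 5 of the 35 genes (5.54% of all tested genes) and smaller for 0 (1.96%). These were Fasn at 2.01 (SE 0.29, adjusted p = 5.67e-05), Acaca at 1.56 (SE 0.342, adjusted p = 0.00308), Scap at 1.22 (SE 0.248, adjusted p = 0.0015), Acly at 0.93 (SE 0.215, adjusted p = 0.0048) and Srebf2 at 0.77 (SE 0.228, adjusted p = 0.0296). Without WT mice 1 and 4 the values were 1.79, 0.91, 1.17, 0.89 and 0.99, all called, and 10 genes were called in all, 7 larger (13.3% of all genes) and 3 smaller in KO (7.26%). The 3 were Nsdhl, Sc5d and Insig2. At 0 hours WT mouse 3 had 7.8, 19.7 and 15.8 CPM of these genes. WT mice 2 and 5 had 23.2 and 19.4, 36.5 and 39.9, and 26.1 and 25.7 CPM. The low values of that single library enter these WT responses, and their part was not tested. With library totals in place of TMM the median of all genes moved by -0.22 and 38.4% of all called genes had the larger response in KO, against 73.9% with TMM. Of the 5 genes, Fasn, Acaca and Scap were called under that scaling. Leaving out each mouse in turn, the first 4 were called in all 10 fits and Srebf2 in 4. At 6 hours the response was larger in KO for Fasn, at 1.36 (SE 0.289, adjusted p = 0.01), and Scap, at 0.97 (SE 0.248, adjusted p = 0.0269), against 2.09% of all genes, and smaller for 0 of the 35 (0.376%). With WT mice 1 and 4 left out, 7 genes had a larger response at 6 hours (5.82% of all genes), among them Fasn and Scap. With library totals 46.6% of the genes called at 6 hours had the larger response in KO, against 84.8% with TMM, and 1 of the 35 was called. Leaving out KO mouse 1, 3 or 4 or WT mouse 1 or 4 left 0 called at 6 hours, leaving out KO mouse 2 left 1, and without WT mouse 2 or 3 there were 4 and 13. At 2 and 24 hours 0 of the 35 were called with all mice, where 0.015% and 0.0752% of all genes were. Without WT mice 1 and 4, 1 gene was called at 24 hours, Fads2, smaller in KO. In that fit 0.86% of all genes were called, 0.649% with the smaller response in KO.

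Before activation the order of the genotypes was the opposite for Fasn and Acly. At 0 hours Fasn had 198, 243, 191, 238 and 253 CPM in KO, against 516, 303, 433, 426 and 263 CPM in WT, all KO values being lower. The difference was -0.79 (SE 0.205, adjusted p = 0.0178), and -0.57 (SE 0.195, adjusted p = 0.0337) without WT mice 1 and 4. Acly differed by -0.46 (SE 0.152, adjusted p = 0.0495) and -0.41 (SE 0.135, adjusted p = 0.0265), with overlapping groups. Acaca was called with all mice, at -0.75 (SE 0.242, adjusted p = 0.0457), but not without these mice, at -0.22 (SE 0.17, adjusted p = 0.359). These 3 were the only genes of the 35 called at 0 hours with all mice, all lower in KO, where 7.93% of all genes were called, 2.34% higher and 5.59% lower. Without WT mice 1 and 4, 2 were higher (8.9%) and 10 lower (13.5%). Leaving out 1 mouse gave 0 to 7 calls, with 0 without KO mouse 1 or 3 or WT mouse 4, 1 without KO mouse 2, 4 or 5, 7 without WT mouse 2 and 6 without WT mouse 5. In limma-voom 1 gene was called at 0 hours with and without the mouse as a block, and with library totals 0, a scaling that moves the median of all genes by 0.14 in this comparison and the higher share of all calls to 67.3%, against 29.5% with TMM. For Fasn, the larger response in KO at 12 hours thus holds both the lower level at 0 hours (-0.79) and the higher level at 12 hours (1.22). The same order was seen for Scap, which was not called at 0 hours with all mice. It had 91.7 to 141 CPM in KO and 146 to 182 CPM in WT at 0 hours, and 213 to 238 and 99.5 to 180 CPM at 12 hours. Every KO library was lower at 0 hours for 4 of the 35 genes (Hmgcs1, Mvk, Fasn and Scap, against 1.56% of all genes) and higher for 0 (1.54%).

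At 2 and 6 hours the calls rested on WT mice 1 and 4. With all mice 7 genes were lower in KO at 2 hours and 16 at 6 hours, 12 of these 16 being sterol enzymes, and 0 were higher (8.9% and 7.59% of all genes lower, 2.9% and 2.53% higher, 11.8% and 10.1% in either direction). Without these mice 1 gene was called at 2 hours (Fads2, higher, against 1.86% of all genes) and 2 at 6 hours (Dhcr7 and Scd2, both higher, against 2.31%), and 0 were lower. With the mouse as a block, in a limma-voom fit, 1 and 4 were called at 2 and 6 hours, and limma-voom without the block called 0 and 2. Leaving out WT mouse 1 or WT mouse 4 alone left 0 calls at 2 hours and 1 at 6 hours. Without single KO mice there were 1 to 3 calls at 2 hours, and at 6 hours 1 without KO mouse 1 or 4, 3 without KO mouse 2 and 5 without KO mouse 3. Without WT mouse 2, 3 or 5 there were 12 to 14 at 2 hours. At 6 hours Hmgcs1 had 120, 153, 133, 157 and 155 CPM in KO, against 848, 143, 123, 657 and 132 CPM in WT. Mice 1 and 4 had 848 and 657 CPM and the other WT mice 123 to 143 CPM, within the KO range of 120 to 157 CPM. Cyp51 at 6 hours had 147, 174, 157, 171 and 179 CPM in KO, against 432, 184, 159, 350 and 208 CPM in WT, with the same mice high.

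For some genes the direction turned when these mice were left out. Scd2 at 6 hours had 56.3, 41.7, 48.1, 47.5 and 65 CPM in KO, against 868, 28.4, 30, 680 and 24.5 CPM in WT. The difference was -2.66 (SE 0.753, adjusted p = 0.0248) with all mice and 0.88 (SE 0.171, adjusted p = 0.00232) without WT mice 1 and 4. Fads2 at 2 hours had 0.594, 0.668, 0.382, 0.597 and 1.8 CPM in KO, against 41.8, 0.122, 0, 23 and 0.195 CPM in WT. The difference was -4.00 (SE 1.33, adjusted p = 0.0436) with all mice and 2.59 (SE 0.622, adjusted p = 0.0136) without, at levels below 1 CPM in the other WT mice, where the fitted size depends on the prior count. Dhcr7 at 6 hours had 15.8, 18.3, 13.6, 16.2 and 15.6 CPM in KO, against 95.6, 12.4, 9.24, 89.8 and 9.1 CPM in WT, with a difference of -1.44 (SE 0.454, adjusted p = 0.0373) with all mice and 0.61 (SE 0.176, adjusted p = 0.0392) without. At 6 hours the mitosis markers of WT mice ran up to 4201 CPM and those of KO mice from 51.1 to 240 CPM; the other 3 WT mice had 49.4 to 50.7 CPM.

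By 24 hours 0 of the 35 genes were called between the genotypes, in both fits, where 6 genes of all those tested were (0.0451% with all mice and 0.0453% without WT mice 1 and 4). At an unadjusted p under 0.05, 916 of all genes passed with all mice, and DESeq2 called 16 genes higher and 153 lower in KO, with 0 of the 35 among them. Fasn had 1085, 1108, 1112, 1162 and 1067 CPM in KO, against 823, 1282, 1145, 885 and 1034 CPM in WT, and Hmgcs1 had 224, 287, 300, 247 and 266 CPM in KO, against 233, 338, 303, 232 and 311 CPM in WT. With all mice both overlapped. The differences were 0.10 (SE 0.203) for Fasn and -0.10 (SE 0.336) for Hmgcs1, or -0.05 (SE 0.197) and -0.25 (SE 0.114) without WT mice 1 and 4. Without WT mice 1 and 4, every KO library was lower for 6 of the 35 genes at 24 hours (Hmgcs1, Cyp51, Sc5d, Fads1, Insig1 and Abcg1, against 7.88% of all genes) and higher for 0 (5.42%), and with all mice for 0 in either direction (2.96% and 2.95%). The range over all 35 genes was -0.51 (Fads2) to 0.38 (Abca1) with all mice.

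Steps between neighbouring times place the changes. From 2 to 6 hours 20 of the 35 genes changed in KO (12 rose and 8 fell, against 24.2% and 19% of all genes). In WT 22 changed (16 and 6, against 16.1% and 13.2%), or 26 without mice 1 and 4, where 51.3% of all genes were called. From 6 to 12 hours 2 changed in KO, both rising (1.31% of all genes rose and 1.55% fell), and 0 in WT (0.609% of all genes called), but 23 in KO and 21 in WT without WT mice 1 and 4, whose spread also enters the shared estimate for KO (23.4% and 20.6% of all genes). With the mouse as a fixed block in edgeR 8 changed in KO, and limma-voom without a block called 2. In the fit without these mice, 14 of 18 sterol enzymes rose from 6 to 12 hours in each genotype, where 11.9% of all genes rose in KO and 9.7% in WT. Of the fatty acid enzymes, KO had 6 and WT had 3 that rose, and Fasn was 0.58 in KO (adjusted p = 0.012) and -0.32 in WT (adjusted p = 0.344). Leaving out any KO mouse left 0 called from 6 to 12 hours in KO, and without WT mouse 1 or WT mouse 3 there were 11 and 5. From 12 to 24 hours 3 changed in KO, all rising (10% of all genes called, 5.6% rising). In WT 8 changed (15.1%), of which 6 rose (7.3%) and 2 fell (7.81%). Without WT mice 1 and 4 the KO and WT counts were 15 and 17 (31.4% and 36.4%). With the mouse as a fixed block in edgeR they were 7 and 13, and in limma-voom without a block 2 and 8. From 12 to 24 hours 0 to 7 changed in KO when 1 mouse was left out (0 without KO mouse 1, 2, 4 or 5, 1 without KO mouse 3, 7 without WT mouse 1 and 6 without WT mouse 3), and in WT 3 without WT mouse 2 and 2 without WT mouse 5. In that step 8 of 9 fatty acid enzymes and 2 of 18 sterol enzymes rose in WT without mice 1 and 4, against 21.1% of all genes, and 5 of 9 and 7 of 18 rose in KO, against 16.9%.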

How the data were processed

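Splenic CD8+ T cells of 5 KO and 5 WT mice were profiled at 5 times by stranded, single-end mRNA sequencing (TruSeq), as the labels' protocols state. The deposited values are raw read counts per Ensembl gene; CASAVA 1.8.2, STAR 2.4, featureCounts 1.4.6 and the build GRCm38 are named in the submitters' processing notes, and the annotation release, strand setting and treatment of multiply mapped reads are not given in the sources used here. The count table names 21647 genes, of which 21583 were matched to a symbol.

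From the counts, genes with at least 10 counts in enough libraries and 15 in total were kept, TMM factors were computed and edgeR 4.0.16 (quasi-likelihood, R 4.3.3) was fitted to all 10 groups, with Benjamini-Hochberg adjustment over the 13294 genes. Fold changes are log2, KO minus WT or later minus earlier, with SE. The fit has 40 residual degrees of freedom and a common dispersion of 0.214, treats libraries of 1 mouse as independent and shares 1 estimate of spread over groups. Libraries of the same mouse deviated together (mean correlation 0.212 to 0.356 in KO and 0.415 to 0.638 in WT). The labels number each mouse across times, so fits with the mouse as a block were run beside the main fit. For KO against WT this was limma-voom with duplicateCorrelation (limma 3.58.1, 0.243). For changes over time and differences of responses it was edgeR with each mouse as a fixed term. The same number in KO and WT marks different mice. Alternatives were RLE size factors, library totals, no filter, DESeq2 1.42.0, limma-voom, only the libraries compared, leaving out each mouse, and leaving out WT mice 1 and 4. The marker sums were compared by an exact permutation test in Python 3.11.15 (scipy 1.17.1), also after library totals, an alternative chosen after seeing the data. Scripts were tested on simulated data. Total counts limit precision for the genes near 1 CPM.

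The 35 genes, the marker lists and the other pathway lists were chosen with earlier results of these data known. Values in every library are given for the genes with the largest changes in KO at 12 hours within each branch and for genes called between KO and WT both with and without WT mice 1 and 4; Msmo1 and Fdft1 were added after their values were seen. The targeted gene is not reported here, nor is any test of the genotype labels that would use it.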

Additional observations from a re-analysis of the deposited data

Results flagged for a closer look

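Among 190 groups of 5 libraries (19 named genes), 10 held a library far from the other 4, where chance gives about 1 in 20 groups. KO mouse 1 had 251 CPM of Cyp51 at 12 hours, the next KO library having 224 CPM. Idi1 was low in KO mouse 4 at 2 hours (0.717 CPM) and in KO mouse 1 at 6 hours (3.63 CPM). Scd1 was high in KO mouse 3 at 0 hours (42.3 CPM, the next 10.2) and at 2 hours (37.1 CPM, the next 9.8), and the same libraries had the highest B cell marker sums, 322 and 209 CPM; their part in the result was not tested. Fads2 was high in KO mouse 5 at 2, 6 and 12 hours (1.8, 2.21 and 3.17 CPM, the next 0.668, 1.02 and 1.69), and so was Scd2 in that mouse at 0 hours (133 CPM, the next 110). KO mouse 5 also had the highest mitosis marker sums of the KO mice at 0, 2, 6 and 12 hours, 802, 388, 240 and 459 CPM, and their part was not tested. WT mouse 1 had 26.3 CPM of Insig2 at 24 hours, the next WT library having 17.7 CPM.

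The change from 0 hours differed between KO and WT, by edgeR's test of the difference of responses, for 7 values. At 6 hours they were Fasn (1.36) and Scap (0.97). At 12 hours they were Acly (0.93), Acaca (1.56), Fasn (2.01), Srebf2 (0.77) and Scap (1.22), all larger in KO.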

How the results depend on the processing

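Each called single-gene result was set against each alternative, so 1 result enters many times. Of these pairs, 4070 kept their direction and their side of the threshold, 598 lost the call and 12 reversed, all 12 without WT mice 1 and 4. The reversed values there were -0.40 for Mvk and -0.15 for Mvd (WT, 6 against 2 hours), 2.59 for Fads2 (KO against WT, 2 hours), and at 6 hours, KO against WT, 0.10 for Hmgcs1, 0.20 for Mvk, 0.03 for Pmvk, 0.23 for Mvd, 0.07 for Nsdhl, 0.61 for Dhcr7, 0.27 for Elovl6, 0.88 for Scd2 and 1.07 for Fads2. The main results moved in 95 cases and stayed the same in 340. These cases hold the counts of called genes among the 35, the marker sums at 12 hours and the difference of the branch medians. Counts of called genes were taken as moved when they changed by over 1.5 times, or to or from 0. The counts below stand without the share of all genes called, which also moved with the setting. For KO against WT at 12 hours it was 13.1% in the main fit and 29.9% with only the libraries compared. These counts therefore show how the calls depend on the setting and are not a result about the 35 genes. Without WT mice 1 and 4 they were 23 and 30 (WT, 2 and 6 hours against 0 hours), 23 and 15 (KO, 12 against 6 and 24 against 12 hours), 21 and 17 (the same steps in WT), 12, 1, 2 and 16 (KO against WT at 0, 2, 6 and 12 hours), and 7, 10 and 1 (difference of responses at 6, 12 and 24 hours). With only the libraries compared they were 3 (WT, 2 hours), 26 and 25 (KO, 12 against 6 and 24 against 12 hours), 4 (WT, 6 against 2 hours), 0, 0, 0 and 17 (KO against WT at 0, 2, 6 and 12 hours) and 0 (difference of responses at 6 hours). With each mouse as a fixed block in edgeR, they were 8 and 7 (KO, 12 against 6 and 24 against 12 hours). For WT at 24 against 12 hours that fit gave 13. Limma-voom without a block gave 2, 2 and 8 for these steps. With each mouse as the block in limma-voom, the counts were 1, 1 and 4 (KO against WT at 0, 2 and 6 hours). Limma-voom without the block gave 1, 0 and 2 there. The lower counts against edgeR at 0, 2 and 6 hours thus came with the change of tool. Library totals gave 1 (KO, 12 against 6 hours), 0 (KO against WT at 0 hours), and 1 and 3 (difference of responses at 6 and 12 hours). No filter gave 1 (KO, 24 against 12 hours) and 1 (KO against WT at 0 hours), RLE factors gave 1 at 0 hours, and DESeq2 gave 4 (difference of responses at 6 hours). Leaving out 1 mouse gave 0 to 11 and 0 to 7 (KO, 12 against 6 and 24 against 12 hours), 0 to 1 and 2 to 11 (the same in WT), 0 to 7, 0 to 14, 1 to 23 and 3 to 9 (KO against WT at 0, 2, 6 and 12 hours), and 0 to 13 and 4 to 6 (difference of responses at 6 and 12 hours). The sterol median minus the fatty acid median of the 12-hour differences was -0.36, and -0.97 without WT mice 1 and 4. The cause of these shifts was not tested; fewer libraries enter the fits of the libraries compared. Genes near 1 CPM (Fads2, Idi1 at 0 hours) are limited by depth.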
